A study of Rattus norvegicus with 20 samples.

Results

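The enzymes described here make and remove epoxides in rat liver: the epoxygenases *Cyp2j3* and *Cyp2j4*, the soluble epoxide hydrolase *Ephx2* and the microsomal epoxide hydrolase *Ephx1*. All ProbeSets that the annotation of the Affymetrix RAE230A array gives to 1 of these symbols alone were taken. This gave 4 genes of the 10412 on the array with a ProbeSet of 1 symbol, each with 1 of the 15923 ProbeSets. The genes were chosen by their log2 signals in these 5 groups, which were already known when they were picked, so their levels and differences between groups are given as a description, with standard errors and without a test. All 4 ProbeSets had a mean log2 signal above 4, the limit of expression used in the study. No member has a second ProbeSet of 1 symbol on the array that could check the first, and ProbeSets of several symbols were not searched.

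Hepatic mRNA was measured in 20 male rats of 10 to 12 weeks, 1 array per rat and 4 rats in each of 5 groups. The groups were out-bred Sprague-Dawley (S-D), in-bred Long-Evans (Turku/AB) (L-E), Han/Wistar (Kuopio) rats of a random-bred closed colony (H/W), and 2 lines, Line-A and Line-C, both descended from crosses of L-E with H/W. S-D, L-E and Line-C rats carry wild-type *Ahr*, and H/W and Line-A rats carry a variant with a deletion in the transactivation domain of the receptor. Every rat had received corn oil by gavage 19 hours before the liver was taken, as the protocol notes state, although the S-D labels say only control. S-D and H/W rats are not genetically identical within their group, and no untreated rats were compared.

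Cytochrome P450 epoxygenases add an oxygen atom across a double bond of arachidonic acid and other fatty acids, which gives epoxyeicosatrienoic acids and related lipid epoxides. Soluble epoxide hydrolase adds water to these lipid epoxides and turns them into diols, and so it sets much of their lifetime in the cell. Microsomal epoxide hydrolase lies in the endoplasmic reticulum next to the P450s and is best known for opening the epoxides that form from drugs and polycyclic hydrocarbons. In liver all these enzymes are found mainly in hepatocytes.

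RefSeq promoters (GRCr8, from 250 bases before to 50 bases after an annotated start) were found for 3 of the 4 genes. *Ephx2* is missing. The windows of the *Cyp2j* pair are shown because their signals moved together over the rats, and *Ephx1* because it alone had its highest signal in S-D. Of the *Ephx1* windows, the downstream one is printed, which held more matches to the letters searched than the upstream one. Capitals mark matches, on either strand, to the letters searched: GCGTG, the core to which AHR binds, TGACNNNGC, as bound by NRF2, GGGCGG, as bound by SP1, CCAAT, as bound by NF-Y, TTGCNNAA, as bound by CEBP proteins, and the direct repeat of PPARA known as DR1.
Cyp2j4, chr5:116322993-116323292, minus strand: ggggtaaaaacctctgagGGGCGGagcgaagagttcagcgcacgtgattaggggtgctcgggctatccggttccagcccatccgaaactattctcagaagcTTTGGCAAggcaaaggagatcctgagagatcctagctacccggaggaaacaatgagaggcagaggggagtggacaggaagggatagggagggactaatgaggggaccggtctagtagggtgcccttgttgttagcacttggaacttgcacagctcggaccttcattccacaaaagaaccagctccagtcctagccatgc
Cyp2j3, chr5:116360450-116360749, minus strand: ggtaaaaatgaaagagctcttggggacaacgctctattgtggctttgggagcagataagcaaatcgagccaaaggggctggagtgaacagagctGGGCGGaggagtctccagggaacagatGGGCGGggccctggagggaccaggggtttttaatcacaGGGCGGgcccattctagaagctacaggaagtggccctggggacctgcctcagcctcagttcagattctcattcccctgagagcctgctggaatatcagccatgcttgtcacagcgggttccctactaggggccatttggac
Ephx1, chr13:95263068-95263367, minus strand: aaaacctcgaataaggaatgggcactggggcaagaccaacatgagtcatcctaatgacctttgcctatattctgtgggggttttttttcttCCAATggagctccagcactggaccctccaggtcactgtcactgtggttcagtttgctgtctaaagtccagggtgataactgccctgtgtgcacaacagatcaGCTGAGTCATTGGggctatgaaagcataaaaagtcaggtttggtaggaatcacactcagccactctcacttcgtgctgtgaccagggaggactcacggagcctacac
The *Cyp2j3* window held 3 matches to the SP1 letters and the *Cyp2j4* window 1, and 33.06% of all 33469 promoters of the same length hold at least 1. The *Cyp2j4* window also held 1 match to the CEBP letters on the other strand, as do 10.6% of promoters. The window at the downstream *Ephx1* start held 2 matches to the NF-Y letters, 1 on each strand, against 37.49% of promoters with a match. The second of these overlaps a match to the NRF2 letters on the same strand, which 12.06% of promoters hold. The upstream *Ephx1* start, at chr13:95275803-95276102 on the minus strand and not printed, held 1 match to the SP1 letters. The AHR core, present in 29.7% of promoters, was found in none of these 4 windows, and neither was the DR1 repeat, present in 0.05%. Letter matches are not binding sites, and no test set them against the signals.

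Some differences between arrays apply to all genes. The S-D arrays had a scan day, a chip lot and an operator of their own, Line-A and Line-C shared a scan day and lot, and those of the parent strains fell on 3 scan days. A difference of S-D from another group, or of the lines from their parents, cannot be told apart from these. The signal of the 3' GAPDH control exceeded that of its 5' control by 0.56 ± 0.02 (log2, SD, n = 4) in S-D and by 0.28 ± 0.04 among L-E rats, with the other groups between. For beta-actin the same difference was 2.02 in S-D, 2.03 in H/W, 2.06 in Line-C, 1.95 in Line-A and 1.79 in L-E, and for hexokinase -0.31 in both S-D and L-E and lowest in Line-A (-0.38), so S-D was highest in GAPDH but not in these controls. General hepatocyte markers had a mean log2 signal between 14.76 and 14.99 in every rat. By group, it ran from 14.76 to 14.82 in S-D and from 14.78 to 14.89 in H/W, and these ranges overlapped. It was higher than in any S-D rat among L-E (14.89 to 14.95), Line-C (14.91 to 14.96) and Line-A rats (14.93 to 14.99).

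*Cyp2j3*, an epoxygenase of arachidonic acid, was lowest in S-D and similar in L-E and both lines. In S-D rats its log2 signal was 9.30, 9.67, 9.83 and 10.02. In H/W rats it was 10.36, 9.96, 10.19 and 9.99, so the lowest H/W rats lay within the S-D range. L-E rats had 10.38, 10.52, 10.86 and 10.87, just above the highest H/W rat. The lines stood with L-E: Line-A rats had 10.40, 10.70, 10.70 and 10.62, and Line-C rats 10.80, 10.69, 10.71 and 10.62. The group means were therefore 9.71 ± 0.30 (SD, n = 4) in S-D, 10.13 ± 0.18 in H/W, 10.60 ± 0.14 in Line-A, 10.66 ± 0.24 in L-E and 10.71 ± 0.07, the highest, in Line-C rats. The last 3 of these could not be put in order, since their ranges overlapped.

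S-D minus the mean of the other 4 groups was -0.82 on the log2 scale (SE 0.11), a 1.76-fold lower signal. In a sample of whole liver, fewer cells of a type and less RNA per cell cannot be told apart, here and in all that follows. Between the ends of the order, Line-C exceeded S-D by 1.0 (log2, SE 0.14), or 2.0-fold. H/W minus L-E was -0.53 (SE 0.14), although the ranges of these groups were only 0.02 apart.

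*Cyp2j4*, the second epoxygenase of the subfamily on this array, followed the same order with wider steps. Its log2 signal was 7.95, 7.42, 8.12 and 8.37 in S-D rats. H/W rats had 8.63, 8.12, 8.65 and 8.66, of which the low one fell inside the S-D range and the other 3 were nearly equal. In L-E rats the signal was 9.29, 9.40, 9.28 and 9.17, with no rat near the H/W range. Line-A rats had 9.08, 9.04, 9.30 and 9.15. Line-C rats had 9.39, 9.29, 9.75 and 9.23, the highest single value of the 20 being here. The means ran from 7.97 ± 0.40 (SD, n = 4) in S-D through 8.52 ± 0.26 in H/W, 9.14 ± 0.11 in Line-A and 9.29 ± 0.09 in L-E to 9.42 ± 0.23 in Line-C.

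The difference between Line-C and S-D in *Cyp2j4* was 1.45 (SE 0.17), a 2.73-fold ratio. S-D lay 2.18-fold below the mean of the other 4 groups (log2 -1.12, SE 0.13), and H/W 1.71-fold below L-E (log2 -0.77, SE 0.17). For both *Cyp2j* genes S-D and H/W overlapped, L-E and the 2 lines overlapped one another, and every other pair of groups was separate.

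**Figure D1:**
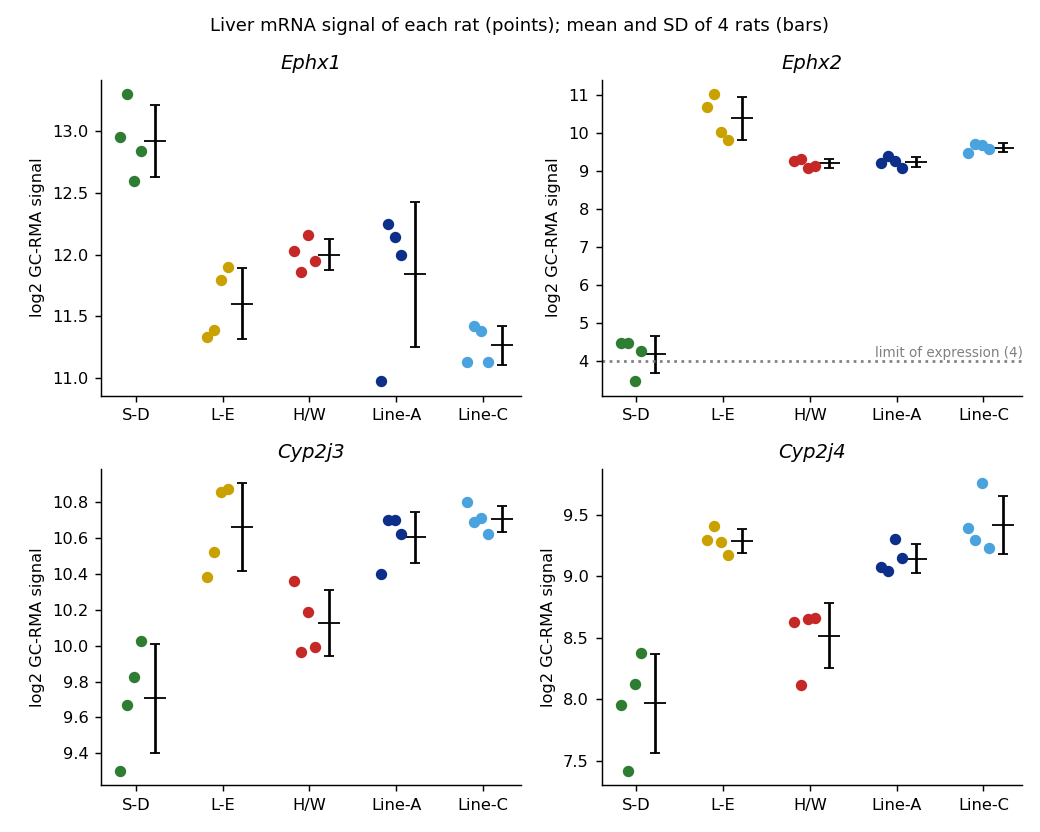
Log2 GC-RMA signal of the 4 genes in each of 20 rats (points, coloured by group) with the mean and SD of 4 rats (black bars); the vertical axes differ between panels and do not start at 0. *Ephx2* in S-D lies between 3.46 and 4.47 against 9.07 or more in every other rat, *Ephx1* is highest in S-D, and the *Cyp2j* genes are low in S-D and H/W.

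Over the 20 rats the log2 signals of *Cyp2j3* and *Cyp2j4* correlated at r = 0.89, which describes the 5 group levels as much as the rats: r was 0.79 over the 16 rats without S-D and 0.32 over the deviations from the group means. The excess of *Cyp2j3* over *Cyp2j4* signal ranged from 1.29 (log2) in Line-C to 1.74 in S-D as group means and from 0.956 to 2.25 in single rats. The ProbeSets differ in their probes, and this is no ratio of transcripts. Whether probes of one gene also bind mRNA of the other was not tested. The genes lie side by side on chromosome 5, with 0 annotated protein-coding genes between them.

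*Ephx2* had the widest range of the 4 genes, and its signal in S-D lay at the limit of expression. In S-D rats the log2 signal was 4.47, 4.47, 3.46 and 4.25, so that 1 of 4 was under the limit of 4. In L-E rats it was 10.67, 11.02, 10.02 and 9.81, the highest of all groups. None of these 4 rats overlapped with any rat of another group. H/W rats had 9.25, 9.32, 9.07 and 9.13, and Line-A rats 9.22, 9.39, 9.25 and 9.07, which is nearly the same range. Line-C rats had 9.48, 9.71, 9.69 and 9.56, all above H/W and Line-A and all under L-E. The order of the means was S-D (4.16 ± 0.48, SD, n = 4), H/W (9.19 ± 0.11), Line-A (9.23 ± 0.13), Line-C (9.61 ± 0.11) and L-E (10.38 ± 0.56), and only H/W and Line-A could not be ordered.

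L-E exceeded S-D in *Ephx2* by 6.22 (log2, SE 0.23), a 74.5-fold ratio of signals. The corresponding ratio to S-D was 43.6 for Line-C, 33.6 for Line-A and 32.7 for H/W. These 4 comparisons share the S-D rats, and all rest on a signal at the limit of expression. The steps among the other groups were far smaller. H/W lay 2.28-fold below L-E (log2 -1.19, SE 0.23), Line-A 2.22-fold below L-E (log2 -1.15) and Line-C 1.71-fold below L-E (log2 -0.77). Line-A minus Line-C was -0.38 (SE 0.23), with 0.09 between the nearest rats.

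*Ephx1* was the only one of the 4 genes with its highest signal in S-D, where rats had 12.95, 13.30, 12.60 and 12.84. H/W rats had 12.03, 11.86, 12.16 and 11.95, and L-E rats 11.33, 11.39, 11.80 and 11.90. All 4 S-D rats were above all 16 others. Line-A rats had 10.98, 12.25, 12.15 and 11.99, of which the first was the lowest rat of all and the rest resembled H/W. Line-C rats had 11.13, 11.42, 11.38 and 11.13. The means were 12.92 ± 0.29 (SD, n = 4) in S-D, 12.00 ± 0.13 in H/W, 11.84 ± 0.59 in Line-A, 11.60 ± 0.29 in L-E and 11.26 ± 0.16 in Line-C. Apart from S-D, the only groups that did not overlap were H/W and Line-C.

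S-D exceeded Line-C in *Ephx1* by 1.66 (log2, SE 0.23), or 3.15-fold, and the mean of the other 4 groups by 1.24 (SE 0.18), or 2.37-fold. The ratio of S-D to L-E was 2.49-fold, to Line-A 2.12-fold and to H/W 1.90-fold, again with shared S-D rats. H/W exceeded L-E by 0.40 (SE 0.23), with overlapping ranges.

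**Figure D2:**
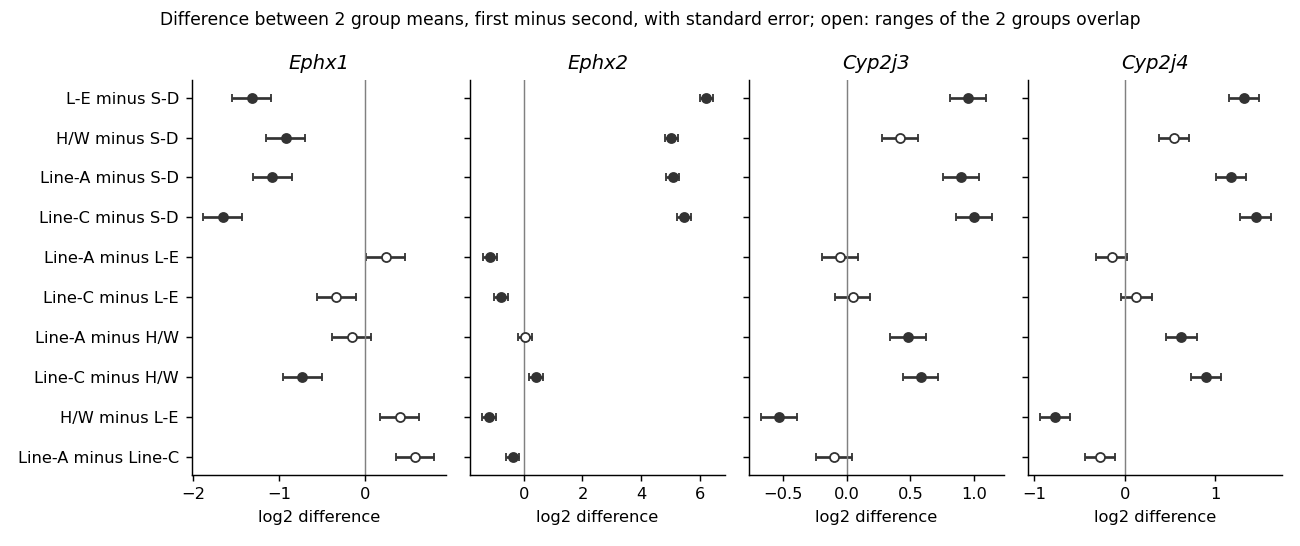
Difference of group means (log2, horizontal axis, first group minus second) for the 10 pairs of groups and 4 genes, with the standard error; filled points are pairs whose ranges of 4 rats do not overlap, and the horizontal scale differs between panels. In the upper 4 lines of each panel, group minus S-D is positive for *Ephx2*, *Cyp2j3* and *Cyp2j4* and negative for *Ephx1*, and 26 of the 40 points are filled.

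Ranges did not overlap in 5 of 10 pairs for *Ephx1*, 9 for *Ephx2*, 6 for *Cyp2j3* and 6 for *Cyp2j4*, and 5 or more such pairs were found in 15.3% of 7168 expressed ProbeSets (mean signal at or above 4). Among these ProbeSets the ranges of S-D and another group were separate in 40.1% (Line-A), 32.9% (Line-C), 28.9% (L-E) and 20.2% (H/W). For pairs without S-D the share was 34.5% for Line-A and L-E, 29.4% for Line-C and L-E, 17.6% for Line-A and H/W, 13.7% for Line-C and H/W, 12.3% for H/W and L-E, and 10.4% for Line-A and Line-C. S-D was separate from all other rats in *Ephx1* from above, as in 3.29% of these ProbeSets, and in *Ephx2* from below, as in 1.65%. As the genes were chosen for such differences, nothing is read from these counts.

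The share of the variance that lay within groups (W/T, where 0 means that all of it lay between groups) was 0.0189 for *Ephx2*, 0.148 for *Cyp2j4*, 0.193 for *Cyp2j3* and 0.235 for *Ephx1*. The median over the 7168 ProbeSets was 0.616. The value for *Ephx1* fell to 0.105 when the single low Line-A rat was left out. Differences between the highest and the lowest group mean were 6.22 for *Ephx2*, 1.66 for *Ephx1*, 1.45 for *Cyp2j4* and 1.0 for *Cyp2j3* (log2), against a median of 0.42. A wider range was found for 7 of the 7168 ProbeSets in the case of *Ephx2* (0.0977%), 273 for *Ephx1* (3.81%), 400 for *Cyp2j4* (5.58%) and 869 for *Cyp2j3* (12.1%).

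L-E and H/W are the parents of both lines, and the position of a line was set to 0 at the mean of the parent with less mRNA and to 1 at that of the parent with more. For *Cyp2j3* Line-A stood at 0.90 ± 0.27 (SD over 4 rats) and Line-C at 1.09 ± 0.14. For *Cyp2j4* the positions were 0.81 ± 0.15 and 1.17 ± 0.30. Both lines thus had *Cyp2j* signals near those of L-E, the higher parent. The arrays of the lines had a scan day and chip lot of their own, and the positions of the lines cannot be told apart from these. *Ephx2* was different, with Line-A at 0.03 ± 0.11, near H/W, and Line-C at 0.35 ± 0.09. For *Ephx1* the parents differed by only 0.40, so positions were loose: 0.60 ± 1.48 for Line-A and -0.86 ± 0.39 for Line-C, whose mean lay under those of both parents while its rats overlapped with L-E rats. The latter position was -1.42 without L-E replicate 1, -1.28 without L-E replicate 2 and -0.49 without L-E replicate 4. Without the low Line-A rat, the position of Line-A in *Ephx1* was 1.33.

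Line-A and Line-C differ in *Ahr* status, and the genetic model of the study gives each line a share of 0.5 of each parent. These shares were set and not measured, and the lines may differ at other places in the genome. Line-A minus Line-C was 0.58 (log2, SE 0.23) for *Ephx1*, -0.38 (SE 0.23) for *Ephx2*, -0.27 (SE 0.17) for *Cyp2j4* and -0.10 (SE 0.14) for *Cyp2j3*. The *Ahr* coefficient of the genetic model takes the same values by construction. Only *Ephx2* had separate ranges here.

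L-E and H/W arrays shared 2 scan days, so that the difference of these parents can be seen within a day. H/W minus L-E in *Ephx2* was -1.42 on the day with 1 rat of each and -1.09 on the day with 2 H/W and 3 L-E rats. In *Cyp2j4* it was -0.66 and -0.90, and in *Ephx1* 0.70 and 0.31. In *Cyp2j3* it was -0.02 on the former day and -0.68 on the latter, so the lower *Cyp2j3* signal of H/W was seen on only 1 of the 2 days.

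Across the pairs of genes, *Ephx1* and *Ephx2* had opposite signals over the 20 rats (r = -0.81), but r was -0.40 over the 16 rats without S-D and -0.02 over the deviations from the group means. *Ephx2* correlated with *Cyp2j3* at 0.77 and with *Cyp2j4* at 0.80, and without S-D at 0.25 and 0.47. Over the deviations from the group means these were negative, at -0.52 and -0.12. The relations of *Ephx2* with the other genes therefore rested largely on the S-D group. All rats entered on 1 array each, and these coefficients describe the 5 groups.

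**Figure D3:**
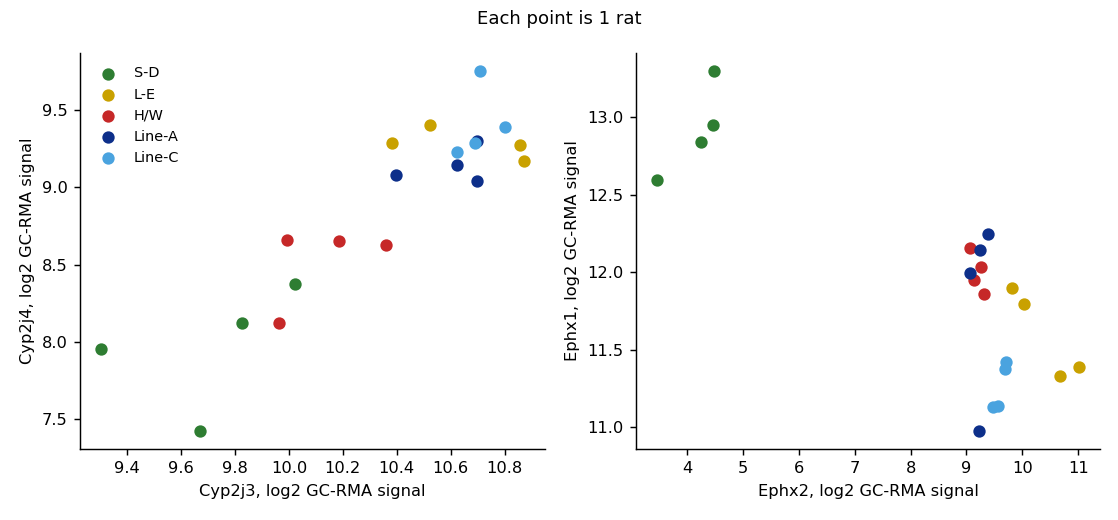
Log2 signal of *Cyp2j4* against *Cyp2j3* (left) and of *Ephx1* against *Ephx2* (right), 1 point per rat, coloured by group. On the left the S-D and H/W rats lie lower than the rest along 1 diagonal (r = 0.89), and on the right the 4 S-D rats stand alone at high *Ephx1* and low *Ephx2*.

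Genes with the most similar signal were looked for among ProbeSets of 1 symbol and a mean of at least 4, by Pearson's r over the 20 rats. For *Ephx2* these were *Hsd17b6* (0.95), a hydroxysteroid dehydrogenase, *Apob* (0.95), the apolipoprotein of VLDL and LDL, and *RT1-CE12* (0.94), a class I histocompatibility gene. *Hsd17b6* was at 10.63 ± 0.26 (log2, SD, n = 4) in S-D and between 13.07 and 13.29 on average in the other groups, and *RT1-CE12* at 7.35 ± 0.17 in S-D against means of 10.41 to 10.96. All 3 share with *Ephx2* the low S-D level, but not the step between L-E and H/W. The most opposite gene was *Chtf8* (-0.95), at 4.64 in S-D and under the limit of expression elsewhere.

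For *Cyp2j3* the nearest genes were *Cyp2j4* (0.89), *Tbcel* (0.87) and *Idh3g* (0.85), a subunit of mitochondrial isocitrate dehydrogenase. For *Cyp2j4* they were *Hsd17b11* (0.90), *Cyp2j3* (0.89) and *Inmt* (0.86), an N-methyltransferase. The most opposite ProbeSet was that of *Cryl1*, a lambda-crystallin gene, for both (-0.83 and -0.86). *Cryl1* had its highest mean in S-D (7.11 ± 0.28) and its lowest in Line-C (4.94 ± 0.49), the reverse of the *Cyp2j* order. The nearest genes to *Ephx1* were *Tmsb4x* (0.91), thymosin beta 4, *Rab14* (0.90), a small GTPase, and *Csad* (0.87), the decarboxylase of taurine synthesis, and the most opposite was *Cept1* (-0.85).

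Around each of the 3 places in the genome, 10 genes with a mean signal of at least 4 were examined, 5 on either side. Genes without such a signal were passed over, and the farthest neighbour was protein-coding gene 39 counted from the *Cyp2j* pair. Of these 30 neighbours, 0 passed the limma F-test at 0.1% FDR, while 10 (33.3%) had an unadjusted p under 0.05, against 57.5% of all genes with such a mean. The count was 1 without L-E replicate 4, Line-A replicate 1 or Line-C replicate 1 or 3. Among all genes with a mean of at least 4, 8.98% passed. The range between the highest and lowest group mean had a median of 0.32 (log2) over the neighbours. *Gulo*, protein-coding gene 2 counted from *Ephx2* and known as the last enzyme of vitamin C synthesis, had a range of 0.93. Its lowest mean was in Line-C, where the SD was 1.05. *Dpysl2*, gene 6 on the other side, had 1.02, with SDs from 0.15 in S-D to 0.86 in Line-C. *Hook1*, protein-coding gene 4 counted from the *Cyp2j* pair, had a range of 0.75 with its highest mean in Line-C. *Jun*, gene 6 on the same side and a subunit of AP-1, had 1.58 with large spread among rats. These 4 neighbours were chosen after their values were seen.

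**Figure D4:**
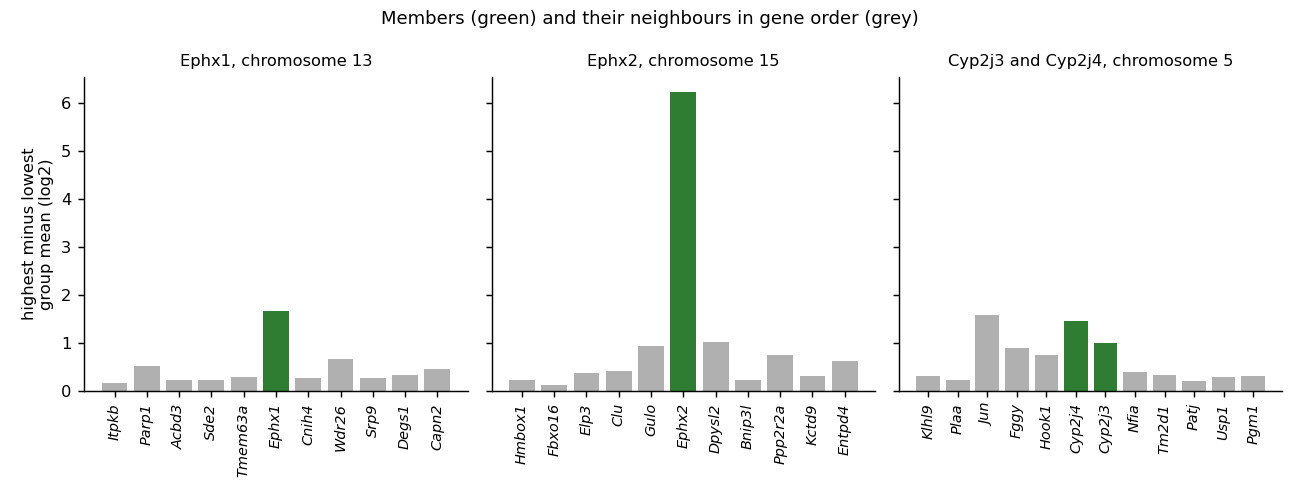
Difference between the highest and the lowest of the 5 group means (log2, bars from 0) for the 4 genes (green) and the 5 genes with a mean signal of at least 4 on either side, in their order along the chromosome (grey). *Ephx2* reaches 6.22 while its 10 neighbours stay at or under 1.02.

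In all, 9 lists of genes around the epoxide pathway held 126 genes on the array besides the 4 described. In the F-test 23 of them passed at 0.1% FDR, against 4.98% of all genes. Of the 96 with a mean of at least 4, 20 passed, against 8.98% of all genes with such a mean. Shares of all genes, here and below, include genes with a mean under 4. In S-D against the mean of the other groups, 7 were higher and 10 lower at 1% FDR, against 4.13% and 2.07% of all genes. These counts rested partly on single rats and on the scan day. The 23 became 14 without S-D replicate 2, 15 without S-D replicate 4 and 8 with scan day as a random block, and the 17 of the S-D contrast became 26 without H/W replicate 3 and 9 with that block. Of the S-D contrasts given below, those of *Cyp2e1*, *Gstt2*, *Pla2g6*, *Ehhadh*, *Nqo1* and *Alas1* were then no longer past 1% FDR in limma (adjusted p = 0.0192 for *Gstt2* to 0.109 for *Ehhadh*).

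Among 13 other epoxide-forming P450s, *Cyp1a2*, the main hepatic P450 of arylamine metabolism, was lower in S-D (log2 -0.82, SE 0.08, limma adjusted p = 2.71e-06), at 13.49 ± 0.19 (SD, n = 4). *Cyp2e1*, which oxidises ethanol, was lower as well (log2 -0.41, SE 0.08, limma adjusted p = 0.00163). *Cyp2b3* was higher by 0.87 (SE 0.13, limma adjusted p = 0.000273), at 13.54 ± 0.10. So 1 of 13 was higher and 2 were lower in S-D. *Cyp2c12*, a sex-dependent rat P450, passed the F-test with 11.79 ± 0.74 in Line-C and 6.46 ± 0.48 in H/W.

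In the list named other epoxide hydrolases, *Lta4h*, leukotriene A4 hydrolase, lay between 7.75 and 8.09 in all group means (limma adjusted p of the F-test 0.0314). *Mest*, also placed in that list, passed the test but was below the limit of expression in every group. Whether *Mest* acts on epoxides was not tested. Glutathione transferases, which conjugate epoxides, gave 1 higher and 2 lower of 19 in S-D. *Gstt3* fell by 1.41 (SE 0.18, limma adjusted p = 4.25e-05), and *Gstt2* rose by 0.84 (SE 0.15, limma adjusted p = 0.00131). Of the 10 fatty acid omega-hydroxylases, which use the same substrates as the epoxygenases, 0 passed the limma F-test, and 7 had an unadjusted p under 0.05, as did 52.7% of all genes. Among 28 genes of arachidonate supply and the other eicosanoid routes 1 was higher and 1 lower in S-D. The former was *Pla2g4a*, cytosolic phospholipase A2, at the limit of expression (4.16 ± 0.20 in S-D and under 4 elsewhere), and the latter *Pla2g6* (log2 -0.82, SE 0.15, limma adjusted p = 0.00131).

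**Figure D5:**
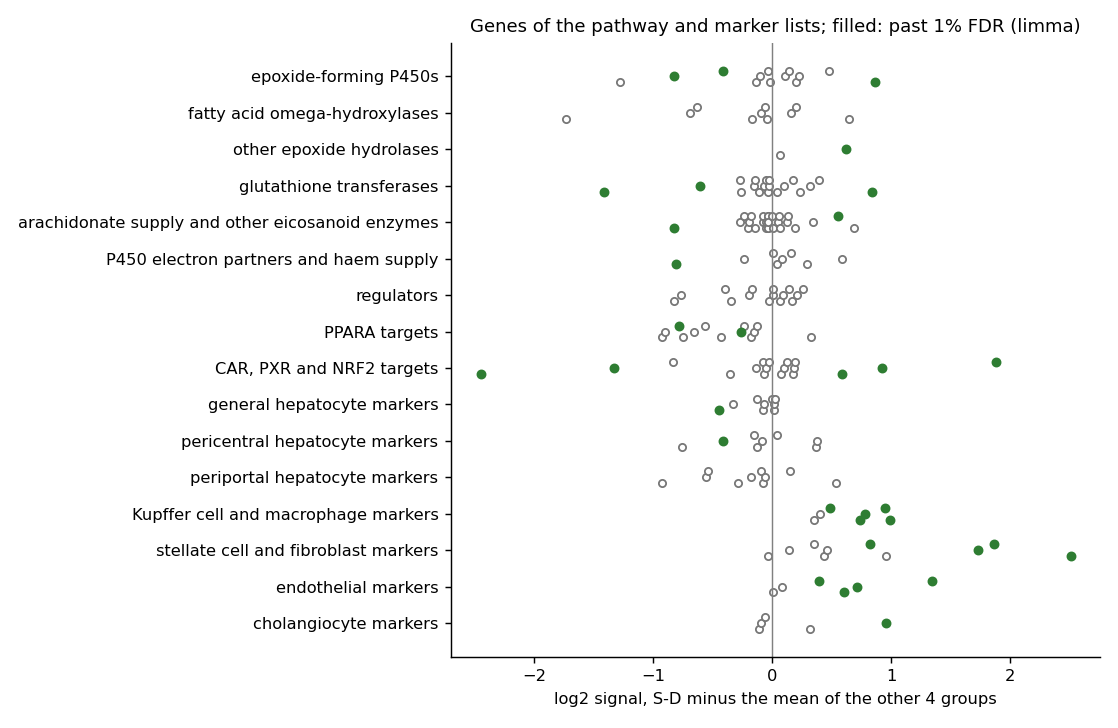
Log2 signal in S-D minus the mean of the other 4 groups for each gene of the 9 pathway and 7 cell-type lists (points), 1 row per list; filled points passed 1% FDR in limma. Pathway lists have filled points on both sides of 0, and the filled points of the Kupffer, stellate, endothelial and cholangiocyte lists all lie above 0.

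*Ephx2* is a known PPARA target and *Ephx1* is induced through CAR, PXR and NRF2, so genes with these regulators were listed too. Of 13 PPARA targets 2 were lower in S-D and 0 higher: *Ehhadh*, a peroxisomal beta-oxidation enzyme (log2 -0.78, SE 0.18, limma adjusted p = 0.00861), and *Fabp1*, liver fatty acid binding protein (log2 -0.26, SE 0.03, limma adjusted p = 5.54e-05). *Acadl*, a mitochondrial dehydrogenase of fatty acids, was past the F-test with its highest mean in L-E. Of 18 targets of CAR, PXR and NRF2, 3 were higher in S-D and 2 lower. *Akr7a3*, the aflatoxin aldehyde reductase, rose by 1.88 (SE 0.22, limma adjusted p = 2.2e-05), and *Nqo1*, the quinone reductase, fell by 2.45 (SE 0.55, limma adjusted p = 0.00743) with an SD of 1.82 among the S-D rats. Of 8 electron partners of P450s and genes of haem supply, 1 was lower in S-D, *Alas1*, the first enzyme of haem synthesis (log2 -0.81, SE 0.18, limma adjusted p = 0.00717), and 0 were higher. *Cyb5b*, a cytochrome b5, passed the F-test with 9.41 ± 0.39 in H/W and 8.27 ± 0.14 in Line-A. Of the 15 regulators 0 were higher and 0 lower in S-D at 1% FDR in limma, and 9 had an unadjusted p under 0.05 in the F-test, which 52.7% of all genes had. At 0.1% FDR 2 passed the F-test, *Arnt* and *Cebpa* (9.09 ± 0.14 in L-E and 7.74 ± 0.28 in Line-C), against 4.98% of all genes. The mean signals of *Ppara* (1.95), *Ahr* (3.11), *Arnt* (3.13) and *Foxa1* (3.96) were under the limit of expression, so little can be read from these ProbeSets.

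In the contrasts that leave S-D out, 4 of the 126 genes were higher and 5 lower in H/W than in L-E, against 0.615% and 0.864% of all genes. Between Line-A and Line-C 1 was higher and 2 were lower, against 0.25% and 0.279%. The mean of the lines was above that of the parents for 2 genes and below it for 14, against 3.61% and 3.34%. The *Ahr* coefficient, called at 5% FDR, was positive for 1 and negative for 2, against 0.346% and 0.394%. The 9 of the first contrast became 3 without L-E replicate 1 or 2, 4 without L-E replicate 3 or H/W replicate 4 and 5 without H/W replicate 1. The 3 of the second became 6 without Line-A replicate 1, and the 16 of the third became 1 with scan day as a random block.

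Signals of other cell types also differed in S-D. Of the Kupffer cell markers 5 of 7 were higher at 1% FDR, of the stellate cell markers 4 of 10, of the endothelial markers 4 of 6 and of the cholangiocyte markers 1 of 5, and 0 in these 4 lists were lower. Of all genes 4.13% were higher and 2.07% lower. The scan day, chip lot and operator of the S-D arrays cannot be told apart from these differences. Over the markers with a mean of at least 4, the log2 signal of the stellate list was 5.95 to 6.87 in S-D rats and 4.96 to 5.97 in all others, and that of the Kupffer list 8.20 to 8.53 against 7.27 to 8.32. The markers *Des*, *Lum*, *Pecam1*, *Vwf*, *Emcn*, *Krt7*, *Krt19*, *Spp1* and *Cldn4* had mean signals under 4 over all rats. So did the pericentral hepatocyte markers *Slc1a2*, *Lgr5* and *Tbx3*. *Emcn* was 1 of the 4 endothelial markers called higher, at 4.01 ± 0.50 (SD, n = 4) in S-D and under 4 elsewhere. In hepatocytes, 1 of 9 general and 1 of 8 pericentral markers were lower in S-D (*Apob*, log2 -0.45, and *Cyp2e1*), and of 10 periportal markers 0 passed in limma, with 5 at an unadjusted p under 0.05 in the F-test. The part of these markers in the S-D levels of the 4 genes was not tested.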

How the data were processed

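Liver RNA of 20 rats was hybridised to Affymetrix RAE230A arrays, 1 array for each of 4 separate rats per group. The authors deposited log2 signals per ProbeSet made with GC-RMA (a background model built on probe GC content, quantile normalization and median polish); the submitters' processing notes name R 2.6.1, affy 1.12.0 and GCRMA 2.10.0. Quantile normalization can hide a shift common to all genes. Array headers were used only for scan day (5), chip lot (4) and operator (2). No value was missing, and array medians lay between 3.47 and 3.69. The number of arrays limits the precision.

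ProbeSets were named through the array annotation: 12789 had 1 symbol, 312 several and 2822 none. Where a gene had several ProbeSets, the brightest on average stood for it. Group means were fitted with limma 3.58.1 under R 4.3.3 (statmod 1.5.0 for blocks) over all 15923 ProbeSets, with Benjamini-Hochberg adjustment over all of them. The F-test was called at 0.1% FDR, contrasts at 1% and the *Ahr* coefficient at 5%. No p is given for the 4 genes, since the members and lists were chosen with earlier results of these data known. W/T came from variance components. In simulated data, the contrast of S-D with the rest recovered 51 of 100 ProbeSets changed by 0.5 (log2) and 89 of 100 changed by 1, of 15923.

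Named genes are the members, up to 3 genes per pathway list and 2 per marker list past the F-test by range (regulators, electron partners and other epoxide hydrolases by mean signal if none passed), the 3 most and 1 least similar genes per member and any neighbour past the test. *Alas1*, *Pla2g6*, *Lta4h*, the markers and regulators under 4 and the genes of the closing section past a contrast were named after their values were seen. The lists held 225 symbols, of which 181 were matched to a gene on the array, *Tf* through a synonym to *F3*. Alternatives were a further quantile normalization, equal medians, scan day and replicate as blocks, array weights, a variance trend, a filter at a mean of 4, other FDR levels, every ProbeSet of a gene, and each rat left out. Promoter sequences are from RefSeq (GRCr8). Protein sequences were not used here. Scripts used Python 3.11.15, pandas 2.3.3, numpy 2.4.6 and matplotlib 3.10.9.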

Additional observations from a re-analysis of the deposited data

Results flagged for a closer look

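In H/W rats, *Cyp2j4* had 1 low value, 8.12 in replicate 2, while the next was 8.63. This gap was 0.937 of the range of the group, above Dixon's 95% critical value for 4 samples. Of the 20 groups of 4 rats tested (4 genes in 5 groups) this was the only one, and chance gives about 1 in 20. Without this rat the H/W minus L-E difference in *Cyp2j4* was -0.64. The cause was not tested.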

How the results depend on the processing

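For the 4 genes the difference between the highest and the lowest group and H/W minus L-E kept their direction and moved by less than the pooled SD of both groups in all 196 alternatives. Many of these settings could not move a difference. Leaving out a rat of neither group, or the replicate block in this balanced design, returned the same value by construction. So did scan day as a random block where neither group spanned several days. With 1 rat left out, W/T lay between 0.105 and 0.285 for *Ephx1*, 0.0142 and 0.0235 for *Ephx2*, 0.159 and 0.229 for *Cyp2j3*, and 0.118 and 0.173 for *Cyp2j4*. The position of Line-A lay between 0.25 and 1.33, -0.01 and 0.08, 0.77 and 1.04, and 0.75 and 0.86 for these genes in the same order, and that of Line-C between -1.42 and -0.49, 0.30 and 0.43, 0.93 and 1.26, and 1.02 and 1.25. With each rat left out, S-D minus Line-C in *Ephx1* lay between 1.53 and 1.76 and H/W minus L-E between 0.30 and 0.49; in *Ephx2* L-E minus S-D between 5.98 and 6.41 and H/W minus L-E between -1.38 and -0.98; in *Cyp2j3* Line-C minus S-D between 0.87 and 1.10 and H/W minus L-E between -0.62 and -0.46; and in *Cyp2j4* Line-C minus S-D between 1.27 and 1.58 and H/W minus L-E between -0.82 and -0.64. Counts over the lists depended more on the settings, and the cause was not tested. The 23 pathway genes past the F-test became 8 with scan day as a random block, 47 with array weights and 36 at 1% FDR, and 14 to 23 with 1 rat left out (14 without S-D replicate 2, 15 without S-D replicate 4). The 17 past the S-D contrast became 9 with that random block, 49 with array weights and 29 at 5% FDR, and 13 to 26 with 1 rat left out (26 without H/W replicate 3). The 9 past H/W minus L-E became 4 with scan day as a fixed block, 19 with array weights and 15 at 5% FDR, and 3 to 10 with 1 rat left out (3 without L-E replicate 1 or 2, 4 without L-E replicate 3 or H/W replicate 4, 5 without H/W replicate 1). The 3 past Line-A minus Line-C became 6 with array weights, at 5% FDR and without Line-A replicate 1, with a range of 2 to 6. The 16 past the lines minus parents became 1 with scan day as a random block and 38 at 5% FDR, with a range of 13 to 19. The 3 past the *Ahr* coefficient became 6 with scan day as a random block, 7 with scan day as a fixed block and 6 with array weights, with a range of 2 to 4. The 0 neighbours past the F-test became 5 with array weights, 1 with the filter at a mean of 4, 4 at 1% FDR and 0 to 1 with 1 rat left out (1 without L-E replicate 4, Line-A replicate 1, Line-C replicate 1 or 3). Replicate numbers did not pair the rats, as deviations of rats with the same number had a mean r of -0.01 (-0.341 to 0.216, 40 pairs) and those with different numbers 0.003. With the replicate block 14 pathway genes passed the F-test, and by construction the differences of the 4 genes were as without it (-1.19 for H/W minus L-E in *Ephx2*). A fixed block of scan day could not be fitted for the F-test, for S-D or for lines against parents. The settings for H/W minus L-E in the 4 genes, for W/T, for the line positions and for the neighbours were chosen after seeing the data. With 4 rats per group, a change of 0.5 (log2) was often missed in the simulated data.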

Other observations

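In the parents of the lines, 9 pathway genes passed the H/W minus L-E contrast at 1% FDR in limma, 4 higher and 5 lower. *Cyp2c12* was lower in H/W (log2 -4.66, SE 0.59, limma adjusted p = 0.000188), *Hmox1*, the haem oxygenase (log2 -2.09, SE 0.25, limma adjusted p = 0.000135) and *Nqo1* (log2 -4.01, SE 0.70, limma adjusted p = 0.00336). *Gstm4* was higher in H/W by 1.86 (SE 0.23, limma adjusted p = 0.000135) and *Cyp4f6*, an omega-hydroxylase, by 1.20 (SE 0.23, limma adjusted p = 0.00622). Between the lines, *Cyp2c12* was lower in Line-A than in Line-C (log2 -3.86, SE 0.59, limma adjusted p = 0.00176) and *Cyp2c6v1* higher (0.84, SE 0.11, limma adjusted p = 0.000401). The SD of *Cyp2c12* was 1.63 among the Line-A rats and 0.74 among the Line-C rats.

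Against the mean of both parents, the lines had 14 lower and 2 higher pathway genes in limma at 1% FDR. With scan day as a random block, 1 of these 16 was past this threshold, *Aldh1a1* (limma adjusted p = 0.00806). Without the block, *Aldh1a1*, a retinal dehydrogenase, was lower (log2 -2.81, SE 0.35, limma adjusted p = 7.54e-05). *Cebpa*, a hepatocyte transcription factor, was lower (log2 -1.06, SE 0.14, limma adjusted p = 0.000126, or 0.0122 with the block), and *Por*, the reductase that supplies electrons to P450s, was lower too (log2 -1.12, SE 0.22, limma adjusted p = 0.0026, or 0.0838 with the block). The same contrast in the 4 genes, as a description, was 0.26 (SE 0.10) for *Cyp2j3*, 0.38 (SE 0.12) for *Cyp2j4*, -0.37 (SE 0.16) for *Ephx2* and -0.25 (SE 0.16) for *Ephx1*. The lines had a scan day of their own, which cannot be told apart from this contrast.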
